A study of Mus musculus with 13 samples.

Results

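Transcripts of 10 clock and clock output genes, of 54532 genes in the deposited table, were examined in inguinal white adipose tissue, a subcutaneous depot, from individual mice. The genes were found by symbol: the activators Arntl and Npas2, the repressors Per1, Per2, Per3 and Ciart, the nuclear receptors Nr1d1 and Nr1d2, and the output factors Dbp and Tef. They were picked with earlier results from these 13 libraries known. Their levels and differences are therefore given as a description with standard errors and without p-values, and nothing was called particular to them.

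The circadian clock is a transcription and translation loop that runs in nearly every mammalian cell, fat cells included. BMAL1 (the product of Arntl) and its partner CLOCK or NPAS2 bind E-boxes and switch on the Per and Cry repressors, the nuclear receptors Nr1d1 and Nr1d2, and the output factors Dbp and Tef, and the PER and CRY proteins then shut BMAL1 off. NR1D1 and NR1D2 (REV-ERB alpha and beta) repress Arntl and Npas2, so that Arntl peaks when Dbp, the Nr1d genes and the Per genes are low. In adipose tissue this loop times lipid storage and release and shifts with feeding, light and glucocorticoids.

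SF_HPD mice (n = 5) had sleep fragmentation and a high-protein diet, in which protein, fat and carbohydrate gave 50%, 12% and 38% of calories. SF_ConD mice (n = 5) had sleep fragmentation and normal chow, and SC_ConD mice (n = 3) had normal sleep and normal chow. Mice were allotted at random with weights matched, and all were fasted for 12 h before the tissue was taken. Strain, sex, age, light schedule, how sleep was fragmented and the clock time of collection are not stated in the sources used here. Clock transcripts vary with the hour, and whether collection time differed between groups was not tested.

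Levels are the authors' FPKM, fragments scaled to transcript length and to a library divisor that is not stated, in total RNA. Whole reads recovered from these values came to 14815592 to 18303302 per library. The divisor did not follow this depth. Dbp had 777 reads at 29.99 FPKM in SF_HPD 2, of 18061485 reads in that library. In SF_HPD 1 it had 2172 reads at 34.0 FPKM, of 17424116 reads. The libraries differed in what they held. All 8 adipocyte markers were above 0 in every library, and their mean log2(FPKM + 1) was 4.23 in SF_HPD 2, against 7.87 to 9.44 in the other 12. Epithelial markers (5 genes) averaged 7.81 on that scale in SF_HPD 2, the highest value of the 13. Muscle markers (8 genes) averaged 11.1 in SF_HPD 4 and 7.54 in SC_ConD 3, against at most 3.42 elsewhere. Liver markers (8 genes) averaged 9.25 in SC_ConD 2 and 7.92 in SC_ConD 3, against at most 4.05 elsewhere. B cell and lymph node markers (8 genes) averaged 5.27 to 6.63 in SF_HPD 4, SF_HPD 5, SF_ConD 1, SF_ConD 4 and SF_ConD 5 (the lymphoid-rich libraries), and at most 1.75 elsewhere. Where these libraries are left out below, only SF_ConD 2 and SF_ConD 3 remain of SF_ConD. In such tissue RNA, fewer cells of a type and less RNA per cell cannot be told apart.

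Libraries also differed in a bias with gene length. Within each library, the deviation of every tested gene from its mean over libraries was ranked against gene length. The Spearman rho was 0.563 in SF_HPD 1, 0.484 in SF_HPD 4, 0.485 in SF_ConD 3 and 0.559 in SC_ConD 1, so long genes read high in these 4 libraries. In the other 9 it was -0.436 to 0.0319. The 4 libraries come from all 3 groups, and each value below can be read against them.

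The control sequence of the clock genes is shown here because these elements define the loop: the E-box (CACGTG, the site of BMAL1), the D-box (TTATGNAA, the site of DBP and TEF) and the RORE, the site of NR1D1 and NR1D2. The RORE was searched by its core alone (NNAGGTCA). N stands for any base, so the A or T rich side of a full RORE was not required. RefSeq promoter windows on GRCm38.p6, from 250 bases before to 50 bases after a start site, were found for 9 of the 10 genes, with no entry for Per2, and both strands were searched. The stretches below are the 250 bases before the start, except for Arntl, where 30 bases after the start are shown. Letters in capitals are the matches.
Ciart, chr3:95882229-95882478, minus strand: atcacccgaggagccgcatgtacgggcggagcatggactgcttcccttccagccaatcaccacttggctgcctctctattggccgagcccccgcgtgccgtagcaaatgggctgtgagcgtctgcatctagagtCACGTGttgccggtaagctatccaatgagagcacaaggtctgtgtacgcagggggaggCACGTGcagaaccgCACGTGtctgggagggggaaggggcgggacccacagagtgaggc
Per1, chr11:69098699-69098948, plus strand: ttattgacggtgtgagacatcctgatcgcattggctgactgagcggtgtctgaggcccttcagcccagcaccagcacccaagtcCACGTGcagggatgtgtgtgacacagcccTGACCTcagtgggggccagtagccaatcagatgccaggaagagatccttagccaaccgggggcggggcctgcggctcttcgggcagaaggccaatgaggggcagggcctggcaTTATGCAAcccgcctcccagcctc
Per3, chr4:151044666-151044915, minus strand: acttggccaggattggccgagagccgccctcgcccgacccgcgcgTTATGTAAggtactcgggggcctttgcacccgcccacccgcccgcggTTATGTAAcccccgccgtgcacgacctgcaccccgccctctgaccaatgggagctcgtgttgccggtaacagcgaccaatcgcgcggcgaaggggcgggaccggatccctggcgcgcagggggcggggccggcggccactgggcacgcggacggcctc
Tef, chr15:81802423-81802672, plus strand: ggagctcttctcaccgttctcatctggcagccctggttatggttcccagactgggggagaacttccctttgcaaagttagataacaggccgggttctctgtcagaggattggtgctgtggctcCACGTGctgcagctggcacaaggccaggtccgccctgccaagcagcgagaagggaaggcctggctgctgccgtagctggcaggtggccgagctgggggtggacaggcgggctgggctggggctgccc
Arntl, chr7:113207530-113207559, plus strand: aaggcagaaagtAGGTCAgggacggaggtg

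The Ciart window held 3 E-boxes, starting 116, 58 and 44 bases before the start site. Of 32851 RefSeq windows of this length, 7.15% held an E-box and 0.0883% held 3 or more. Per1 had an E-box at 166 bases before its start, a D-box at 24 bases and, on the opposite strand, a RORE core at 137 bases. Per3 had D-boxes at 205 and 158 bases before its start, where 3.38% of all windows held a D-box and 0.161% held 2 or more. Tef had an E-box in each of its windows, at 127 bases in the one shown and at 138 bases in another. RORE cores lay 31 bases after a start of Arntl and 77 bases before that of Nr1d2, and 16.2% of all windows held one. In total, an E-box was found for 3 of the 9 genes, a D-box for 2 and a RORE core for 3. The windows of Dbp, Nr1d1 and Npas2 held none of these letters, which says nothing about sites elsewhere in the gene. A match is a run of letters and was not read as a bound site.

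Ordered by mean over the 13 libraries, with SD, the output factor Dbp stood highest at 25.9 ± 13.7 FPKM. Nr1d1 followed at 20.9 ± 21.1 FPKM, Tef at 19.5 ± 10.5 FPKM, Nr1d2 at 14.6 ± 8.998 FPKM and Per1 at 7.51 ± 6.62 FPKM. Lower still were Per2 at 3.48 ± 2.62 FPKM, Per3 at 3.03 ± 2.76 FPKM, Arntl at 0.844 ± 0.428 FPKM, Ciart at 0.734 ± 0.564 FPKM and Npas2 at 0.270 ± 0.317 FPKM. Most neighbours kept this order in most libraries. Dbp was above Nr1d1, and Ciart above Npas2, in 10 of the 13 libraries each. Per2 was above Per3, and Per3 above Arntl, in 9 each. Tef was above Nr1d2, and Nr1d2 above Per1, in 12 of the 13 libraries each, and Per1 was above Per2 in 11. Nr1d1 was above Tef in only 4 libraries and Arntl above Ciart in 6, so these neighbours did not differ beyond their spread.

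**Figure D1:**
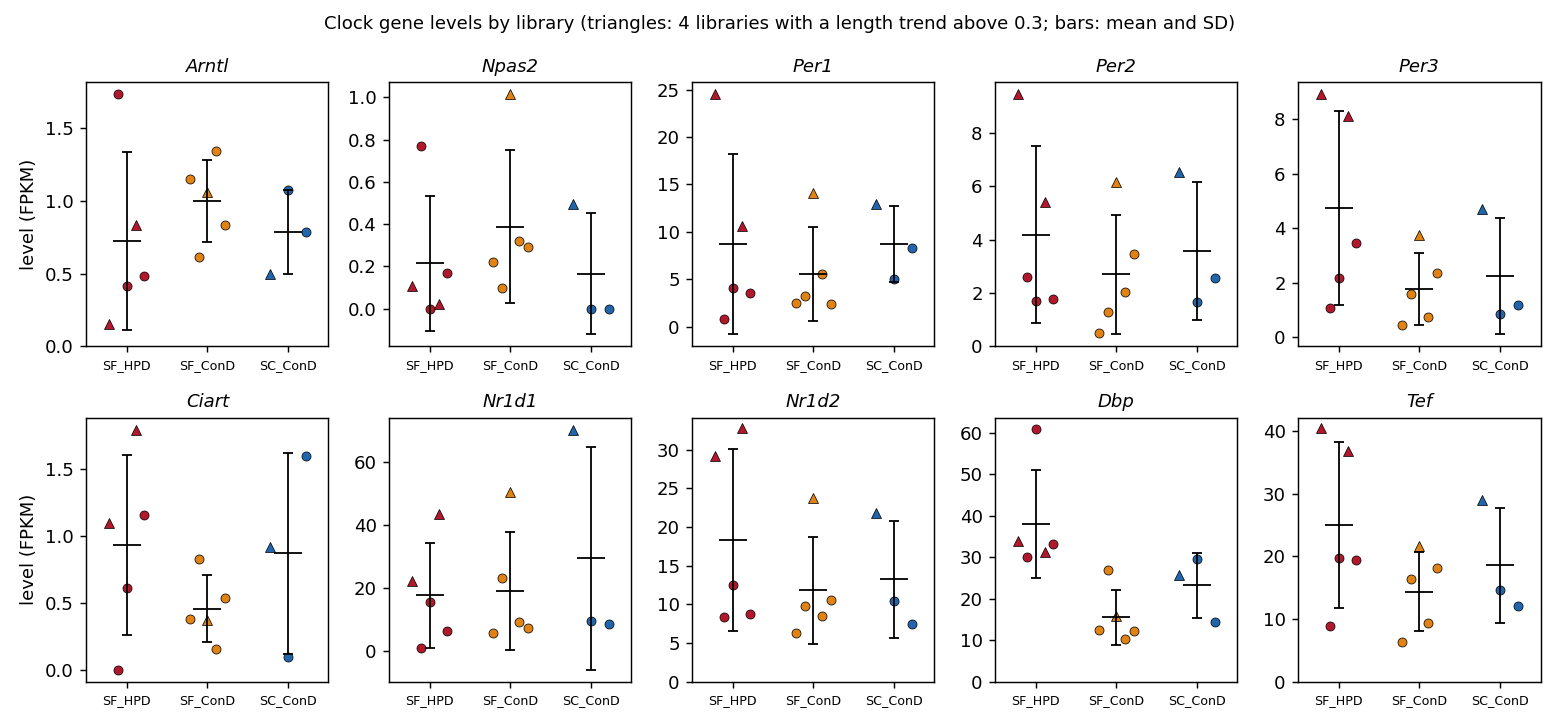
FPKM of the 10 genes in SF_HPD, SF_ConD and SC_ConD libraries, 1 point per library, with group mean and SD as bars and the 4 libraries of higher length trend as triangles. Dbp is the gene whose SF_HPD points, 29.99 to 61.0 FPKM, all lie above those of both other groups, while triangles top the panels of Per1, Per2, Per3, Nr1d2 and Tef.

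The tested differences were taken from one limma fit over 14421 genes on log2(FPKM + 1), the genes with at least 1 FPKM in at least 3 libraries. At an adjusted p under 0.05 this fit called 0 genes in SF_HPD against SF_ConD, in SF_ConD against SC_ConD and in SF_HPD against SC_ConD, that is 0% of all genes, and 0 of the 9 clock genes tested. At an unadjusted p under 0.05, limma had 273 (1.89%), 828 (5.74%) and 531 (3.68%) genes in these comparisons, and limma-voom on the recovered reads, which also called 0, had 267, 625 and 469. The smallest limma adjusted p over all genes was 0.999994, 0.716 and 0.394. A median gene had a standard error of 0.41, 0.47 and 0.47 on the log2 scale, which is the size of most of the differences below. All 3 comparisons draw on the same 3 groups, so they are not independent of each other.

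The activators were among the lowest genes of the set. Arntl, which encodes BMAL1 (ENSMUSG00000055116, chr7:113207465-113314126, plus strand, GRCm38), had 0.156, 1.74, 0.416, 0.832 and 0.483 FPKM in SF_HPD libraries 1 to 5. It had 1.15, 0.614, 1.06, 1.34 and 0.833 FPKM in SF_ConD libraries 1 to 5, and 0.497, 1.07 and 0.783 FPKM in SC_ConD libraries 1 to 3. The SF_HPD libraries held both the lowest and the highest value of the 13, SF_HPD 1 and SF_HPD 2, and all groups overlapped. On the log2 scale the difference was -0.27 (SE 0.26) in SF_HPD against SF_ConD, 0.17 (SE 0.29) in SF_ConD against SC_ConD and -0.10 (SE 0.29) in SF_HPD against SC_ConD. Without SF_HPD 2 and 4, the 3 remaining SF_HPD values all lay below the 5 SF_ConD values. The share of all genes with that order in these libraries is not given, so nothing was read from it.

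Npas2, the paralogue of CLOCK (ENSMUSG00000026077, chr1:39193731-39363236, plus strand), reached 1 FPKM in a single library and so was not tested. It stood at 0.108, 0.772, 0, 0.0242 and 0.168 FPKM in SF_HPD, at 0.221, 0.0979, 1.01, 0.320 and 0.291 FPKM in SF_ConD, and at 0.495, 0 and 0 FPKM in SC_ConD. A count of 0 allows up to 3 reads, or 0.0332 FPKM in SF_HPD 3, 0.0674 FPKM in SC_ConD 2 and 0.0551 FPKM in SC_ConD 3, and these limits cover counting error only. Clock itself, the usual partner of BMAL1 and not among the 10 genes, averaged 2.37 ± 1.03 FPKM in SF_HPD, 2.53 ± 1.25 FPKM in SF_ConD and 3.09 ± 1.43 FPKM in SC_ConD (SD).

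The PER proteins and CIART (also called CHRONO) repress BMAL1 and its partner. Per1 (ENSMUSG00000020893, chr11:69095217-69109960, plus strand) had 24.5, 0.821, 4.12, 10.6 and 3.53 FPKM in SF_HPD. In SF_ConD it had 2.44, 3.27, 14.1, 5.53 and 2.41 FPKM, and in SC_ConD 12.98, 4.99 and 8.26 FPKM. The SF_HPD values spanned the full range of the 13 libraries, so the groups overlapped throughout. The fitted log2 difference was 0.27 (SE 0.64) in SF_HPD against SF_ConD, -0.74 (SE 0.74) in SF_ConD against SC_ConD and -0.48 (SE 0.74) in SF_HPD against SC_ConD. In SF_HPD against SF_ConD it turned to -0.38 without the lymphoid-rich libraries and to -0.29 in the 9 libraries of lower length trend.

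Per2 (ENSMUSG00000055866, chr1:91415982-91459324, minus strand) had 9.45, 2.60, 1.69, 5.42 and 1.79 FPKM in SF_HPD, 0.496, 1.30, 6.15, 2.04 and 3.48 FPKM in SF_ConD, and 6.53, 1.67 and 2.55 FPKM in SC_ConD. As a log2 difference this was 0.49 (SE 0.50) in SF_HPD against SF_ConD, -0.37 (SE 0.57) in SF_ConD against SC_ConD and 0.11 (SE 0.57) in SF_HPD against SC_ConD. Its groups overlapped as those of Per1 did, with SF_HPD 1 again the highest library.

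Per3 (ENSMUSG00000028957, chr4:151003652-151044665, minus strand), the Per gene that is dispensable for the rhythm itself in mice, had 8.92, 1.08, 2.16, 8.13 and 3.45 FPKM in SF_HPD. It had 0.461, 1.59, 3.76, 0.752 and 2.35 FPKM in SF_ConD, and 4.72, 0.863 and 1.18 FPKM in SC_ConD. Only SF_HPD 1 and SF_HPD 4 lay above every library of the other groups, and both are libraries of high length trend. The log2 difference of 0.93 (SE 0.50) in SF_HPD against SF_ConD was the largest after that of Dbp among the 10 genes. It was -0.17 (SE 0.58) in SF_ConD against SC_ConD and 0.76 (SE 0.58) in SF_HPD against SC_ConD.

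Ciart (ENSMUSG00000038550, chr3:95878503-95882251, minus strand) passed the filter on low values through 4 libraries. It had 1.10, 0, 0.610, 1.79 and 1.16 FPKM in SF_HPD, 0.380, 0.830, 0.370, 0.153 and 0.539 FPKM in SF_ConD, and 0.919, 0.0952 and 1.59 FPKM in SC_ConD. The SF_HPD libraries 1, 4 and 5 were above all 5 SF_ConD libraries, whereas SF_HPD 2 was listed at 0, which allows up to 0.153 FPKM. No library held more than 70 reads of it. The log2 difference was 0.35 (SE 0.31) in SF_HPD against SF_ConD, -0.29 (SE 0.36) in SF_ConD against SC_ConD and 0.05 (SE 0.36) in SF_HPD against SC_ConD.

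Nr1d1, which encodes the haem-binding repressor REV-ERB alpha (ENSMUSG00000020889, chr11:98767932-98775333, minus strand), was the most variable of the abundant genes. It had 22.2, 0.751, 15.3, 43.6 and 6.10 FPKM in SF_HPD, 5.75, 23.1, 50.4, 9.02 and 7.32 FPKM in SF_ConD, and 70.4, 9.34 and 8.52 FPKM in SC_ConD. The lowest library was SF_HPD 2 with 20 reads, and the highest was SC_ConD 1 with 3652. Within each group the values differed so widely that the log2 difference had a standard error of 0.88 to 1.02: -0.35 in SF_HPD against SF_ConD, -0.38 in SF_ConD against SC_ConD and -0.72 in SF_HPD against SC_ConD. Without the lymphoid-rich libraries it was -2.01, 0.88 and -1.14 in these comparisons. SF_ConD then held only SF_ConD 2 and SF_ConD 3, the latter of high length trend and at 50.4 FPKM. Without SC_ConD 2 and 3 it was -2.28 in SF_ConD against SC_ConD and -2.62 in SF_HPD against SC_ConD. That leaves only SC_ConD 1, the highest library of all and one of high length trend. The cause of these shifts was not tested. Its exons share 263 bases, or 8.55% of its exonic length, with Thra on the opposite strand, and whether the counting used strand is not stated in the sources used here. Thra averaged 13.9 ± 5.12 FPKM in SF_HPD, 12.5 ± 4.41 FPKM in SF_ConD and 12.7 ± 5.79 FPKM in SC_ConD (SD).

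Nr1d2, which encodes REV-ERB beta (ENSMUSG00000021775, chr14:18204054-18239127, minus strand), had 29.2, 8.31, 12.5, 32.8 and 8.73 FPKM in SF_HPD. It had 6.30, 9.77, 23.8, 8.51 and 10.6 FPKM in SF_ConD, and 21.9, 10.4 and 7.46 FPKM in SC_ConD. In each group the libraries of high length trend were the highest, and the rest lay within 6.30 to 12.5 FPKM. On the log2 scale the difference was 0.50 (SE 0.46) in SF_HPD against SF_ConD, -0.16 (SE 0.53) in SF_ConD against SC_ConD and 0.35 (SE 0.53) in SF_HPD against SC_ConD.

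DBP and TEF are PAR bZIP activators that bind D-boxes and carry the rhythm to metabolic and detoxification genes. Dbp (ENSMUSG00000059824, chr7:45705088-45710203, plus strand) had 34.0, 29.99, 61.0, 31.3 and 33.2 FPKM in SF_HPD. It had 12.5, 26.8, 15.8, 10.2 and 12.3 FPKM in SF_ConD, and 25.8, 29.5 and 14.5 FPKM in SC_ConD. All 5 SF_HPD libraries were above all 5 SF_ConD and all 3 SC_ConD libraries, by a margin of 0.529 FPKM between the lowest SF_HPD and the highest SC_ConD library. Dbp averaged 37.9 ± 12.99 FPKM in SF_HPD, 15.5 ± 6.64 FPKM in SF_ConD and 23.3 ± 7.81 FPKM in SC_ConD (SD). The fitted log2 difference was 1.26 (SE 0.33) in SF_HPD against SF_ConD, -0.58 (SE 0.38) in SF_ConD against SC_ConD and 0.69 (SE 0.38) in SF_HPD against SC_ConD.

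Dbp was the only one of the 10 genes whose groups did not overlap, in SF_HPD against SF_ConD and in SF_HPD against SC_ConD. Over all 14421 genes tested, 0.229% lay wholly higher in SF_HPD than in SF_ConD and 0.229% wholly lower, while for SF_HPD against SC_ConD the shares were 0.791% and 0.853%. For SF_ConD against SC_ConD none of the 10 genes was without overlap, against 1.68% of all genes higher and 1.92% lower. Since Dbp was picked with such values in view, nothing was read from these counts.

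The separation of Dbp depended on the scale. In TPM, which sets every library to the same sum, Dbp stood at 129, 22.7, 131, 99.8 and 35.9 in SF_HPD, at 18.8, 48.4, 43.7, 22.7 and 14.8 in SF_ConD, and at 71.1, 29.2 and 19.4 in SC_ConD. There SF_HPD 2 and SF_HPD 5 lay within the range of the other groups, and the log2 difference was 1.31 in SF_HPD against SF_ConD. After median-of-ratios scaling of the FPKM the groups stayed apart, at 28.1 to 61.2 in SF_HPD, 10.3 to 27.0 in SF_ConD and 14.2 to 27.5 in SC_ConD. That scaling barely moved the deposited values, from 29.99 to 28.1 in SF_HPD 2 and from 34.0 to 33.5 in SF_HPD 1. It is therefore nearly the same scale, and nothing was read from this result. None of the 10 genes was without overlap in TPM. Of all genes 0.0693% lay wholly higher and 0.104% wholly lower in SF_HPD than in SF_ConD on that scale, 1.21% and 1.01% in SF_ConD than in SC_ConD, and 0.707% and 0.562% in SF_HPD than in SC_ConD. The deposited FPKM sums differed 5.03-fold between libraries, with the highest in SF_HPD 2. As recovered reads, not scaled to depth, Dbp had 777 in SF_HPD 2 and 985 in SF_HPD 5. It had 1199 in SF_ConD 2 and 1302 in SC_ConD 1, so the groups overlapped in reads too.

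**Figure D2:**
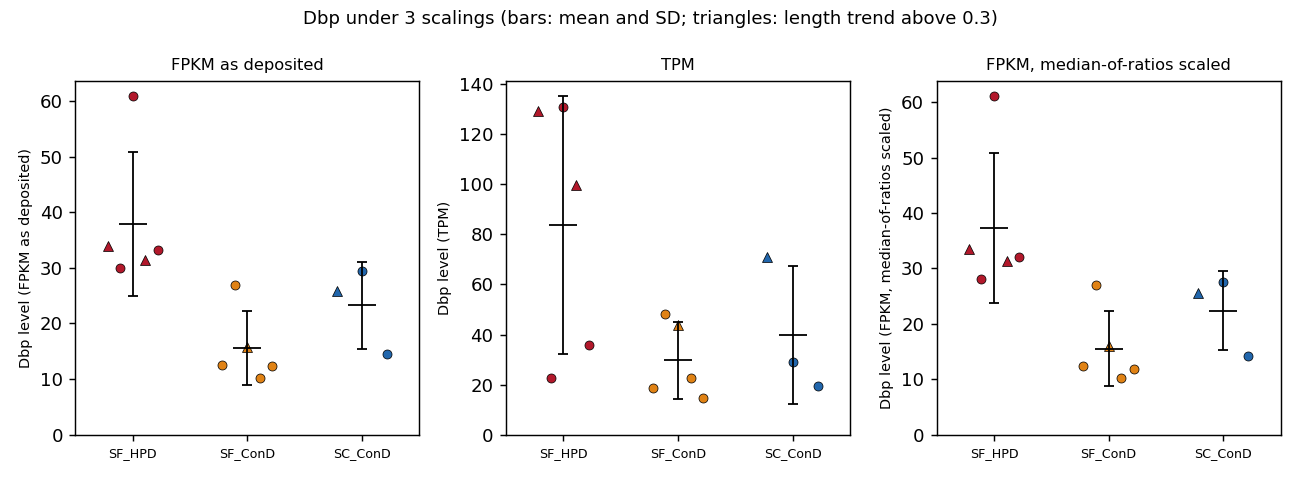
Dbp level per library in SF_HPD, SF_ConD and SC_ConD as deposited FPKM, as TPM and as FPKM after median-of-ratios scaling, with group mean and SD as bars and triangles for the 4 libraries of higher length trend. SF_HPD points stand clear of both other groups in the first panel and in the last, which is nearly the same scale. In TPM SF_HPD 2 (22.7) and SF_HPD 5 (35.9) fall among the other groups.

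The Dbp difference was also measured beside the features in which libraries differed. Within the 4 libraries of high length trend Dbp was at 34.0 and 31.3 FPKM in SF_HPD, 15.8 FPKM in SF_ConD and 25.8 FPKM in SC_ConD. Within the other 9 it was at 29.99, 61.0 and 33.2 FPKM in SF_HPD, at 12.5, 26.8, 10.2 and 12.3 FPKM in SF_ConD, and at 29.5 and 14.5 FPKM in SC_ConD. The log2 difference in SF_HPD against SF_ConD was 1.39 in the 9 libraries. Since all SF_HPD libraries lay above all others, any subset keeps that order, so the split by length trend says nothing about it. The 3 lowest Dbp values of all were those of the lymphoid-rich SF_ConD 1, 4 and 5. The lymphoid-rich SF_HPD 4 and 5 were at 31.3 and 33.2 FPKM, and the part of lymphoid content in the Dbp values was not tested. Without the lymphoid-rich libraries the difference was 0.91. Without SF_HPD 2 and 4, which had the lowest adipocyte and the highest muscle marker level, it was 1.43.

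Exons of Dbp share 539 bases, 18.0% of its exonic length, with Sphk2 on the opposite strand. Sphk2, a sphingosine kinase, averaged 5.31 ± 2.68 FPKM in SF_HPD, 6.14 ± 0.860 FPKM in SF_ConD and 4.42 ± 1.20 FPKM in SC_ConD (SD). The part of reads from Sphk2 in the Dbp values was not tested.

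Tef (ENSMUSG00000022389, chr15:81802421-81826863, plus strand) had 40.5, 8.85, 19.7, 36.8 and 19.5 FPKM in SF_HPD. It had 6.38, 16.4, 21.7, 9.31 and 18.2 FPKM in SF_ConD, and 29.0, 14.6 and 12.1 FPKM in SC_ConD. SF_HPD 1 and 4 were the highest of the 13 and SF_HPD 2 the next to lowest, so the groups overlapped, unlike those of Dbp. As a log2 difference this was 0.70 (SE 0.45) in SF_HPD against SF_ConD, -0.37 (SE 0.52) in SF_ConD against SC_ConD and 0.33 (SE 0.52) in SF_HPD against SC_ConD. Without the lymphoid-rich libraries it was 0.03 in SF_HPD against SF_ConD. The share of lymphoid transcripts and their part in the Tef, Per3 and Nr1d2 differences was not tested beyond that omission, under which Per3 was at 0.20 and Nr1d2 at -0.07.

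**Figure D3:**
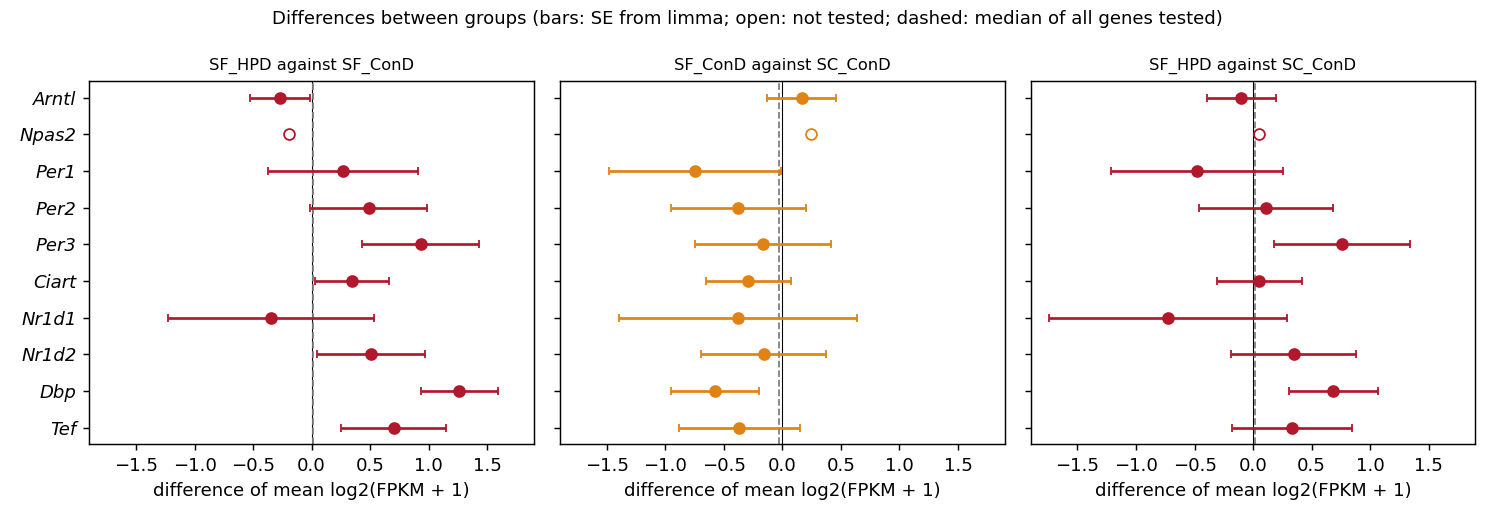
Differences of mean log2(FPKM + 1) for the 10 genes in SF_HPD against SF_ConD, SF_ConD against SC_ConD and SF_HPD against SC_ConD, with limma standard errors as bars and the median of all tested genes as a dashed line (open circle, Npas2, not tested). Dbp at 1.26 ± 0.33 and Per3 at 0.93 ± 0.50 are the largest values of the first panel, and Nr1d1 has the widest bars.

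Counted by sign, 7 of the 10 genes were higher in SF_HPD than in SF_ConD, with a median log2 difference of 0.42, where 51.9% of all tested genes were higher and the median was 0.01. In SF_ConD against SC_ConD 2 of the 10 were higher, Arntl and Npas2, with a median of -0.33, against 47.4% of all genes and a median of -0.03. In SF_HPD against SC_ConD 7 of the 10 were higher, with a median of 0.08, against 51.8% of all genes and a median of 0.02. The activators Arntl and Npas2 had the sign opposite to Dbp, Tef, Per1, Per2, Per3, Nr1d2 and Ciart in the first comparison, while Nr1d1 had the sign of the activators. These counts moved when libraries were left out. Without the lymphoid-rich libraries, which leaves SF_ConD 2 and 3 alone in SF_ConD, 4 of 10 were higher in SF_HPD than in SF_ConD. In SF_ConD 6 of 10 were then higher than in SC_ConD. In SF_ConD against SC_ConD Nr1d1, Nr1d2, Per3 and Tef were then at 0.88, 0.33, 0.30 and 0.12. Without SC_ConD 1 the count for SF_ConD against SC_ConD was also 6 of 10. Without SC_ConD 2 and 3 the count for SF_HPD against SC_ConD was 2 of 10, with Per2, Nr1d2, Tef and Per3 at -0.75, -0.47, -0.38 and -0.24. These values rest on SC_ConD 1 alone, a library of high length trend.

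The Per genes, Nr1d2 and Tef were set beside the length trend of the libraries. For these 5 genes all 4 libraries of high length trend were above all other 9. Per1 was at 10.6 to 24.5 FPKM in the 4 and at 0.821 to 8.26 FPKM in the 9. Nr1d2 was at 21.9 to 32.8 FPKM in the 4 and at 6.30 to 12.5 FPKM in the 9, and Tef at 21.7 to 40.5 FPKM and 19.7 FPKM or less. Per2 was at 5.42 to 9.45 FPKM in the 4 and at 0.496 to 3.48 FPKM in the 9, and Per3 at 3.76 to 8.92 FPKM and 3.45 FPKM or less.

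Gene length goes with this pattern. These 5 genes have 5409 (Nr1d2) to 9608 (Per3) exonic bases, and the median tested gene has 3589. Of all tested genes 13.5% showed the same order of the 4 above the 9, and of the 4283 tested genes with at least 5409 bases 34.1% did. In TPM these shares were 30.1% and 62.6%, and Nr1d1 joined the 5 genes. Arntl, at 7523 bases, did not follow its length: the 4 libraries lay at 0.156 to 1.06 FPKM and the 9 at 0.416 to 1.74 FPKM. Dbp, at 2993 bases, and Nr1d1, at 3077 bases, are shorter than the median, and Nr1d1 was at 22.2 to 70.4 FPKM in the 4 and at 0.751 to 23.1 FPKM in the 9. The part of gene length in the values of the 5 genes was not tested further.

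**Figure D4:**
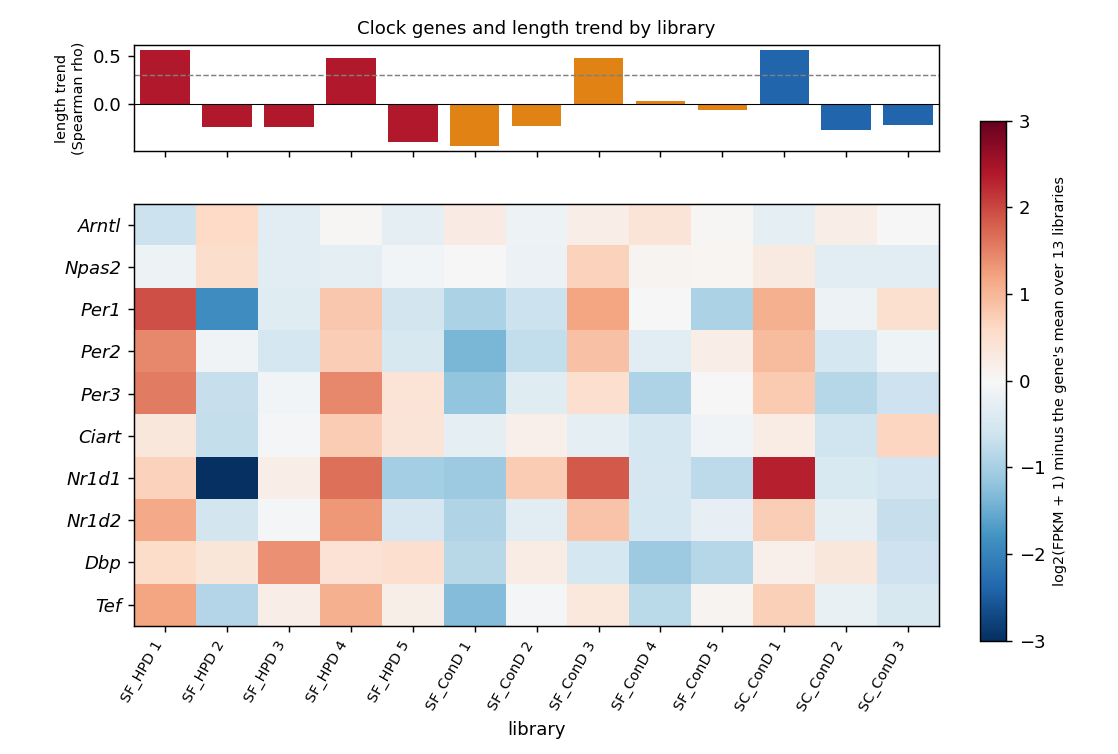
Level of each gene in each library as log2(FPKM + 1) less the gene's mean over the 13 libraries, with SF_HPD, SF_ConD and SC_ConD libraries from left to right and the length trend of each library given with it. SF_HPD 1, SF_HPD 4, SF_ConD 3 and SC_ConD 1 are high for the Per genes, Nr1d2 and Tef together, and SF_HPD 2 is low for Per1 and Nr1d1 and high for Arntl.

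Ratios within a library do not depend on its FPKM divisor. They can still carry the bias with gene length, since Dbp has 2993 and Nr1d1 3077 bases against 7523 for Arntl. The part of that bias in the ratios was not tested. Dbp over Arntl, an output over an activator that peak at opposite phases, was 218, 17.3, 147, 37.7 and 68.8 in SF_HPD, 10.8, 43.7, 14.8, 7.61 and 14.7 in SF_ConD, and 51.9, 27.4 and 18.5 in SC_ConD. The median was 68.8 in SF_HPD, 14.7 in SF_ConD and 27.4 in SC_ConD, and all groups overlapped. Few reads lie behind some of these ratios, with 25 reads of Arntl in SF_HPD 1 and 36 in SF_HPD 5.

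Nr1d1 over Arntl was 142, 0.433, 36.9, 52.4 and 12.6 in SF_HPD, 5.002, 37.5, 47.5, 6.72 and 8.79 in SF_ConD, and 142, 8.70 and 10.9 in SC_ConD. SF_HPD 2 was the only library with more Arntl than Nr1d1. Per3 over Arntl had medians of 7.16 in SF_HPD, 2.59 in SF_ConD and 1.51 in SC_ConD, with ranges of 0.624 to 57.3, 0.400 to 3.54 and 0.804 to 9.50. Dbp over Tef, 2 outputs of the same family, had medians of 1.70 in SF_HPD, 1.10 in SF_ConD and 1.20 in SC_ConD, and its groups overlapped as well.

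**Figure D5:**
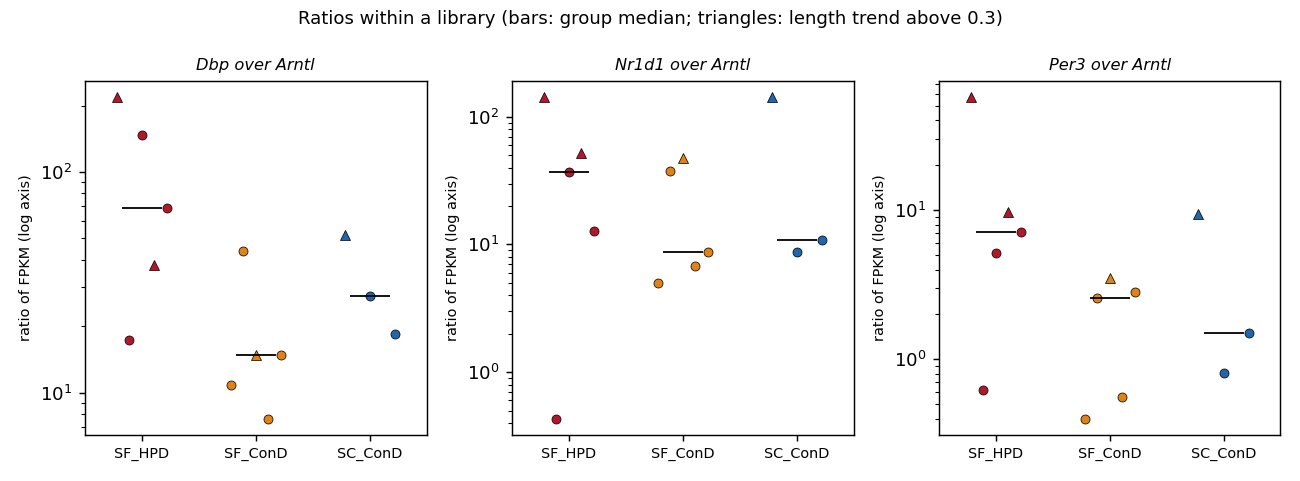
Ratios of FPKM within each library, on a log axis, for SF_HPD, SF_ConD and SC_ConD, with 1 point per library. Dbp over Arntl has a median of 68.8 in SF_HPD, 14.7 in SF_ConD and 27.4 in SC_ConD, with overlapping points.

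Across the 9 libraries of lower length trend, Arntl ran opposite to most of the others in FPKM. This is a description of libraries that differ in FPKM sum, group and tissue content. Its Spearman rho was -0.87 with Tef, -0.80 with Ciart, -0.75 with Per3, -0.53 with Nr1d2, and -0.52 with each of Nr1d1 and Dbp. It was -0.25 with Per1 and 0.22 with Per2. In TPM the same values were -0.55 with Tef, -0.50 with Ciart, -0.68 with Per3, -0.02 with Nr1d2, 0.03 with Nr1d1 and -0.30 with Dbp. Per1 was at 0.07 and Per2 at -0.05 on that scale, and the median over these 8 genes was -0.175. Tef went with Per3 (0.87) and with Nr1d2 (0.83) in FPKM, and with both in TPM (0.93 and 0.73). Over the 28 pairs of the 8 genes other than Arntl and Npas2, 21 were positive, with a median of 0.20 in FPKM and 0.52 in TPM.

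Genes with a profile like that of Dbp were ranked by Spearman rho over all 13 libraries among the 9529 genes that averaged 2 FPKM or more. The highest were Phlda3 at 0.87, Mir22hg at 0.85, Ackr3 at 0.85, Otud3 at 0.84 and Map2k3 at 0.79. Mir22hg, the host transcript of a microRNA, averaged 18.0 ± 3.23 FPKM in SF_HPD, 8.96 ± 3.53 FPKM in SF_ConD and 8.95 ± 2.72 FPKM in SC_ConD (SD). Dedd2 was lowest at -0.81, followed by Zscan2 at -0.80, Smarcd2 at -0.77, Zc3h10 at -0.76 and Mogs at -0.76. Among the clock genes Tef ranked 233, Per3 359, Nr1d2 506, Nr1d1 2345, Per1 2520 and Per2 3207, and these ranks hold for FPKM alone. In TPM the rho of Dbp over the 13 libraries was 0.81 with Per3, 0.78 with Tef, 0.72 with Nr1d2, 0.69 with Nr1d1, 0.65 with Per1 and 0.54 with Per2, where in FPKM it was 0.48, 0.53, 0.44, 0.17, 0.15 and 0.10.

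For Arntl, ranked likewise among 9530 genes, the highest were Junb at 0.88, Ap3m1 at 0.87, Prkab1 at 0.87, Prr3 at 0.86 and Gar1 at 0.86. The lowest were Pnpla8 at -0.95, Abcd2 at -0.93, Cav1 at -0.91, Slc22a3 at -0.91 and Cd36 at -0.91. Cd36, the fatty acid transporter, is one of the 8 adipocyte markers. SF_HPD 2, the library of lowest adipocyte marker level, had the highest Arntl, and the part of adipocyte content in the Arntl values was not tested. Tef was at -0.72 and ranked 9327. In TPM Arntl over the same 13 libraries was at -0.07 with Tef, and its median rho with the 8 other genes was 0.05 in TPM and -0.54 in FPKM.

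Among 21 other clock genes, 18 were tested, and limma called 0 of them in SF_HPD against SF_ConD, SF_ConD against SC_ConD and SF_HPD against SC_ConD. At an unadjusted p under 0.05 in limma there were 0, 0 and 3 of the 18, against 1.89%, 5.74% and 3.68% of all genes. These genes were chosen with earlier results known, so nothing was read from the counts. In SF_HPD against SF_ConD 11 of the 21 were higher and 10 lower. The 3 with the smallest p there, none of which passed, were Nfil3, a D-box repressor and the counterpart of Dbp, at -0.45 (SE 0.25), Bhlhe40, an E-box repressor, at -0.71 (SE 0.60), and Hlf, the remaining PAR bZIP factor, at 0.51 (SE 0.46). Their adjusted p in limma was 0.999994. Nfil3 was at 1.89 to 3.26 FPKM in SF_HPD and 2.83 to 4.40 FPKM in SF_ConD, with overlap.

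In SF_HPD against SC_ConD, Bhlhe40 had the smallest p of the other clock genes, at 5.52 ± 7.03 FPKM in SF_HPD and 15.3 ± 2.99 FPKM in SC_ConD (SD), a log2 difference of -1.83 (SE 0.69). Nfil3 was at 2.51 ± 0.597 FPKM in SF_HPD and 4.87 ± 1.91 FPKM in SC_ConD (SD), a difference of -0.70 (SE 0.29). Cry1, a core repressor, was at 1.38 to 5.44 FPKM in SF_HPD and at 3.66, 1.26 and 0 FPKM in SC_ConD, a difference of 1.03 (SE 0.47). None of the 3 passed adjustment, with a limma adjusted p of 0.99991.

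In SF_ConD against SC_ConD the smallest p belonged to Cry1, at 0.88 (SE 0.47, limma adjusted p = 0.893). Rora, an activator that competes at ROREs, followed at -0.87 (SE 0.53, limma adjusted p = 0.922), and then Bhlhe40 at -1.12 (SE 0.69, limma adjusted p = 0.931). None of these passed. Cry2, the paralogue of Cry1, averaged 5.62 ± 3.82 FPKM in SF_HPD, 3.89 ± 1.68 FPKM in SF_ConD and 7.31 ± 4.82 FPKM in SC_ConD (SD).

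Glucocorticoids induce Per1, so 9 glucocorticoid-induced genes were counted beside it. Limma called 0 of the 9 in each comparison, and 4 of the 9 were higher in each. At an unadjusted p under 0.05 in limma there were 2 of the 9 in SF_HPD against SF_ConD, where 1.89% of all genes were. There were 0 in SF_ConD against SC_ConD (5.74% of all genes) and 1 in SF_HPD against SC_ConD (3.68%). This list too was chosen with earlier results known, so nothing was read from these counts. Fkbp5 was at 4.90 ± 4.35 FPKM in SF_HPD, 10.4 ± 2.78 FPKM in SF_ConD and 9.08 ± 0.396 FPKM in SC_ConD (SD), and Dusp1 at 32.8 ± 13.9 FPKM in SF_HPD, 13.2 ± 7.43 FPKM in SF_ConD and 24.6 ± 13.2 FPKM in SC_ConD (SD). In SF_HPD against SF_ConD the log2 differences were -1.20 (SE 0.41) for Fkbp5 and 1.32 (SE 0.44) for Dusp1, in opposite directions, and neither passed (limma adjusted p = 0.999994).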

How the data were processed

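Total RNA of inguinal white adipose tissue from 13 individual mice was measured. The authors deposited FPKM per gene in 1 table with gene names, lengths and GRCm38 coordinates. The submitters' processing notes name CASAVA, HISAT2 2.0.5, featureCounts 1.5.0-p3 and build mm8, without roles, although 53499 of 54532 genes have the start and end of GENCODE M21 on GRCm38. The divisor behind the deposited FPKM and the strand setting of the counting are not stated in the sources used here. FPKM times length over the smallest step of each library gave whole reads for at least 99.9963% of values within 0.05. These reads were used for depth, read counts, floors and limma-voom only.

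Limma 3.58.1 in R 4.3.3 was run on log2(FPKM + 1) over 14421 genes with at least 1 FPKM in at least 3 libraries, with 3 group means over all 13 libraries, eBayes with trend and robust, two-sided tests and Benjamini-Hochberg adjustment at 0.05. Fold changes on this scale understate the changes of low genes. P-values measure the spread between individual mice. Ratios, Spearman rho and promoter matches were computed in Python 3.11.15 with pandas 2.3.3 and scipy 1.17.1. The limma fit was tested on simulated counts, which did not hold the length trend or the tissue differences of these libraries.

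The 10 genes, the other clock genes, the glucocorticoid list and the tests were chosen with earlier results of these data known. The text names all 10 genes, Clock, Cry1, Cry2, Nfil3 and Hlf, the 3 other clock genes of smallest p per comparison, and the 5 highest and 5 lowest profiles for Dbp and Arntl. One further gene that the rule listed is not reported here. Fkbp5, Dusp1 and Thra were named after their values were seen, as was Sphk2. No library pair agreed within sampling noise (lowest chi-square per degree of freedom 71.0). Deviations from the group means correlated across genes at 0.711, 0.333 and 0.191 for SF_HPD and SC_ConD libraries numbered 1, 2 and 3. The same-numbered SC_ConD library was the best match for SF_HPD 1 and SF_HPD 2, and not for SF_HPD 3. SF_HPD 1 and SC_ConD 1 also share a high length trend (rho 0.563 and 0.559). The labels give no source of a pairing, and whether the numbers pair mice was not tested.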

Additional observations from a re-analysis of the deposited data

Results flagged for a closer look

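In 32 groups of 5 libraries examined (the 10 genes and 6 other clock genes in SF_HPD and in SF_ConD), the highest or lowest library stood apart by Dixon's test in 5. The limit used gives about 1 in 20 only for independent, normally distributed values. FPKM of genes measured in the same libraries are not independent, and no share over all genes is given. Nothing was therefore read from this count. Dbp in SF_HPD 3 was at 61.0 FPKM, with the next SF_HPD library at 34.0. Per1 in SF_ConD 3 was at 14.1 FPKM, with the next at 5.53, and Nr1d2 in SF_ConD 3 at 23.8 FPKM, with the next at 10.6. Npas2 in SF_ConD 3 was at 1.01 FPKM, with the next at 0.320, and Npas2 in SF_HPD 2 at 0.772 FPKM, with the next at 0.168. SF_ConD 3 is the 1 SF_ConD library of high length trend (rho 0.485), and its part in these values was not tested.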

How the results depend on the processing

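Dbp kept its sign in all alternatives run. Its log2 difference was 0.91 to 1.47 in SF_HPD against SF_ConD. In SF_ConD against SC_ConD it was -0.87 to -0.11, and in SF_HPD against SC_ConD 0.39 to 0.95. For SF_HPD against either group, leaving out libraries could not change the sign. All SF_HPD libraries lay above all others in FPKM, so nothing was read from those omissions. Over the 10 genes, 8 of 236 alternative values in SF_HPD against SF_ConD, 14 of 216 in SF_ConD against SC_ConD and 27 of 226 in SF_HPD against SC_ConD had the other sign, and the cause was not tested. Other clock genes called were 0 under every alternative. TPM moved the median of all genes by 0.03, 0.19 and 0.23 in these comparisons.

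Genes called, 0 in each comparison, were 0 to 1, 0 to 194 and 0 to 196 when a replicate was left out; the 1 came without SF_HPD 5, and the 194 and 196 without SC_ConD 1. With the 9 libraries of lower length trend, an alternative chosen after seeing the data as was the length trend as a covariate, 162 genes were called in SF_ConD against SC_ConD and 172 in SF_HPD against SC_ConD.

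In SF_HPD against SF_ConD, genes without overlap were 1, and 0 in TPM and with quantile scaling. They were 2 without SF_HPD 2 and 4 (Arntl and Dbp), 2 without the lymphoid-rich libraries (Nr1d1 and Dbp) and 1 in every omission of a replicate. The share of all genes without overlap is not given for the reduced sets, here or in the comparisons below. Nothing was therefore read from these counts. Higher genes were 7, and 4 without the lymphoid-rich libraries and 6 to 8 with a replicate left out.

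In SF_ConD against SC_ConD, genes without overlap were 0, and 6 without SC_ConD 2 and 3, which leaves 1 SC_ConD library, 1 (Npas2) in the 9 libraries and 0 to 1 with a replicate left out (Npas2 without SC_ConD 1, Ciart without SC_ConD 2). Higher genes were 2 of 10, or 1 of the 9 tested. They were 1 of 9 with quantile scaling, limma-voom and the length covariate, which give no value for Npas2, so the count of the 9 was the same. They were 1 of 10 without SC_ConD 2 and 3, 4 in the 9 libraries and 6 without the lymphoid-rich libraries. They were 2 to 6 with a replicate left out (4 without SF_ConD 1, 6 without SC_ConD 1).

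In SF_HPD against SC_ConD, genes without overlap were 1, and 0 in TPM and with quantile scaling, 2 without SC_ConD 2 and 3 (Nr1d1 and Dbp), 2 without SF_HPD 2 and 4 (Arntl and Dbp), 2 in the 9 libraries (Per1 and Dbp) and 1 in every omission of a replicate; higher genes were 7, and 2 without SC_ConD 2 and 3 and 5 to 8 with a replicate left out.

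With the replicate number as a block, 0 genes were called in each comparison, and higher genes were 7 of 9 in SF_HPD against SF_ConD, 1 of 9 in SF_ConD against SC_ConD and 5 of 9 in SF_HPD against SC_ConD, against 7, 1 and 6 of these 9 without it. Same-numbered libraries correlated at -0.670 to 0.405 in SF_HPD against SF_ConD and at -0.558 to 0.190 in SF_ConD against SC_ConD. Outside this block fit, the numbers were not taken as pairing in any comparison. Depth limits Npas2, Ciart and Arntl, with 0 to 204 reads a library.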
